A study of Mus musculus with 31 samples.

Results

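The 8 genes described here, P2ry12, P2ry13, Tmem119, Sall1, Siglech, Csf1r, Gpr34 and Olfml3, are used to recognise microglia in their resting, homeostatic state. They were found by gene symbol in the count table, and all 8 were among its 15648 genes. Bulk RNA-seq of the left hippocampus was available for 31 adult OT-I/Rag-/- mice. These mice carry a transgenic T cell receptor for an OVA peptide presented by H-2Kb, and without Rag (Rag1 in the study's methods) they form no other mature T or B cells, which applies to both vectors alike. rAAV-OVA mice received rAAV-hSyn-OVA-mCherry and rAAV-control mice received rAAV-hSyn-mCherry, in CA1 of both hemispheres. The hSyn promoter drives expression in neurons, so microglia themselves were not the target of the vector. Tissue was taken at day 2, 5, 8 or 28 from 4 mice per vector and day, except for 3 rAAV-control mice at 8 days, and every mouse is a library of its own.

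Microglia are the resident macrophages of the brain parenchyma. Their survival depends on the receptor Csf1r and its ligands Csf1 and Il34, and their identity is kept by TGF-beta signalling and by the transcription factor Sall1. Surface receptors for nucleotides and lipids, among them P2ry12, P2ry13 and Gpr34, let the cells sense damage nearby. When microglia react to injury or inflammation, the loss of some of these transcripts is commonly read as a loss of the homeostatic state, whereas the total amount of microglial RNA in a tissue may rise at the same time because the cells multiply. In bulk tissue, a different number of microglia and a different amount of RNA per microglial cell cannot be told apart.

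Totals per mouse ran from 19046977 to 57407902 estimated counts, with a median of 27024978, so that 1 count equalled 0.0179 to 0.0507 CPM (counts per 1000000 counts after TMM scaling). The 8 genes were well covered: the lowest value was 157 counts, for Siglech in rAAV-control mouse D743. The labels give batch 1 for 23 mice and batch 2 for 8. At 2 and 28 days each group holds 2 mice of each batch, and at 5 and 8 days every mouse is of batch 1. A pair of mice stood apart from their groups. rAAV-control mouse D720 at 8 days had 9.73 CPM of Cd8a, the CD8 chain of cytotoxic T cells, against 0.517 and 1.09 CPM in the other 2 control mice of that day. rAAV-OVA mouse D844 at 28 days had 6.28 CPM of Cd8a, the lowest of its group, in which the highest was 171 CPM. The summed level of the 8 genes was 778 CPM in D720, against 276 and 388 CPM in the other control mice at 8 days, and 325 CPM in D844, whose group reached 854 CPM. The fit was therefore repeated without D720 and D844, a choice made after the data had been seen. Since the levels of the 8 genes were among the values that set these mice apart, leaving out a high control mouse and a low rAAV-OVA mouse raises the Log2FC of these genes by construction. The values without them show how far the results rest on these mice. Calls made in that fit alone support nothing, and an upward call kept in it adds no support. In that fit 6 of the 8 genes were called at 8 days, where 12.1% of all genes were called higher, and 6 at 28 days, where 14.6% were, all 6 higher on each day.

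Levels and Log2FC are given for each gene below, because the 8 genes did not change together. A gene was called when the edgeR quasi-likelihood test gave a Benjamini-Hochberg FDR of at most 0.05 over all 15648 genes and the absolute Log2FC was at least 0.66, with 2 surrogate variables for unwanted variation in the model. These variables were estimated from the same counts. Within groups, the first correlated with the 8 genes at r from −0.56 (Olfml3) to 0.31 (Gpr34), and with Csf1r at −0.54. The second did so at r from −0.67 (Gpr34) to 0.02 (Sall1). Among control mice at 8 days D720 had the lowest value of the first (−0.29). Among rAAV-OVA mice at 28 days D844 had the highest (0.17). Whether the variables remove part of the response itself was not tested. Of the 8 genes, 0 were called at 2 days and 3 at 5 days. Later, 1 was called on day 8 and 5 on day 28. At 5 days Csf1r and Tmem119 were higher in rAAV-OVA mice and Gpr34 was lower. For comparison, 9.56% of all genes were called higher and 4.67% lower at that time point. At 8 days Csf1r alone was called, higher, where 9.36% of all genes were called higher and 0.588% lower. At 28 days Csf1r, Tmem119, Olfml3, Sall1 and P2ry13 were called, all higher, where 12.7% of all genes were called higher and 4.86% lower. The median Log2FC of the 8 genes was −0.11, 0.31, 0.43 and 0.84 on days 2, 5, 8 and 28, and that of all genes was 0.01, −0.01, −0.03 and 0.01.

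**Figure D1:**
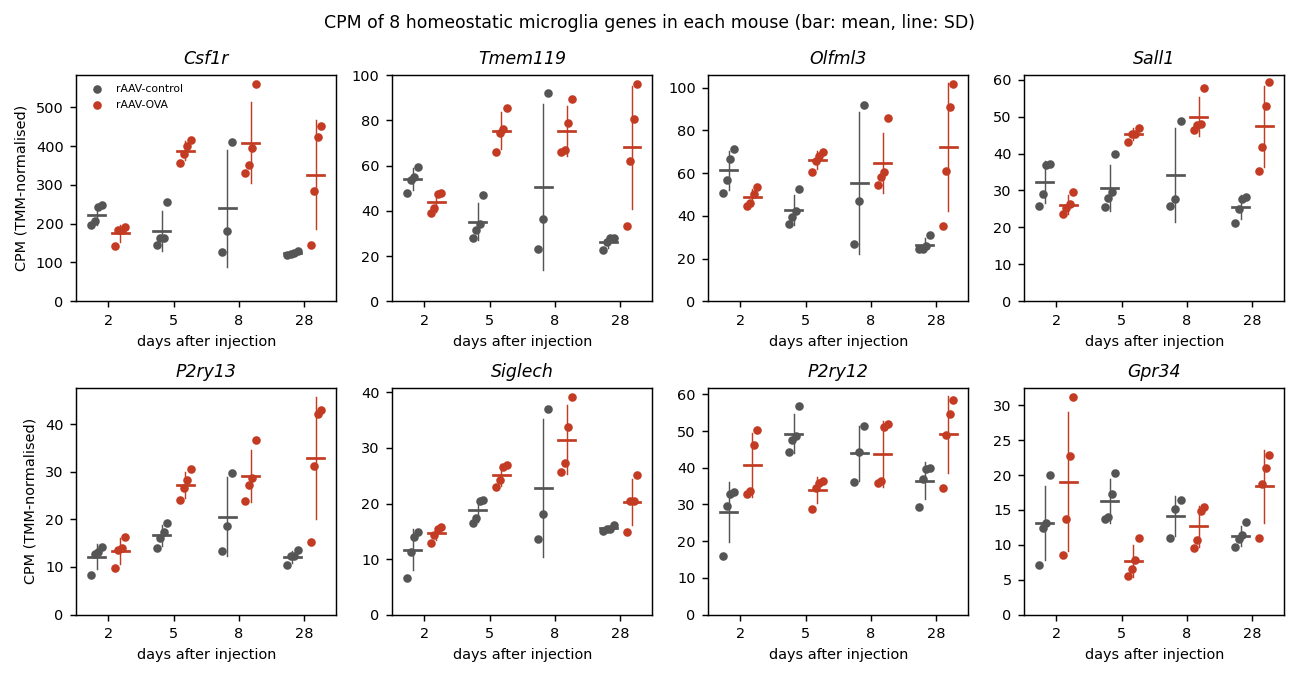
CPM (y axes, from 0) of the 8 genes in every mouse by day after injection (2, 5, 8 or 28, x axes), with rAAV-control in grey and rAAV-OVA in red; points are mice, bars are group means and lines are 1 SD. At 5 days the 2 vectors do not overlap for any gene, and P2ry12 and Gpr34 are the genes for which rAAV-OVA mice lie below rAAV-control mice.

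Csf1r, the receptor tyrosine kinase for Csf1 and Il34 that all tissue macrophages and monocytes also carry, was the most abundant of the 8. At 5 days the rAAV-OVA mice had 358, 380, 400 and 416 CPM and the rAAV-control mice 144, 162, 163 and 256 CPM. The groups did not overlap, with D755 as the highest control mouse. The mean was 388 ± 25.4 CPM (SD, n = 4) against 181 ± 50.7 CPM (SD, n = 4), a ratio of 2.14. The model, which takes out part of this difference with its surrogate variables, gave a Log2FC of 0.73 (SE 0.26, FDR 0.0376), and without surrogate variables it was 1.10 (FDR 0.00451). The call at 5 days was near its limit. It was lost in 13 of 31 fits that left out 1 mouse (D726, D786, D723, D724, D745, BEC-B541, BEC-B542, D743, BEC-B544, D701, D696, D843 or D851), with Log2FC between 0.59 and 0.73 and FDR between 0.0283 and 0.119.

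At 8 days Csf1r reached 330, 350, 394 and 561 CPM in rAAV-OVA mice and 126, 181 and 410 CPM in rAAV-control mice. The control value of 410 CPM is D720, and it made the groups overlap. Log2FC was 0.84 (SE 0.27, FDR 0.0306) with all mice and 1.43 (FDR 8.75e-05) without D720 and D844. The call was lost when D684, BEC-B541, BEC-B542, D700, D701, D702, D696, D722 or D845 was left out, with Log2FC between 0.46 and 0.80, so at 8 days it did not withstand the removal of single mice. At 28 days the values were 146, 285, 423 and 452 CPM in rAAV-OVA mice and 121, 122, 125 and 129 CPM in rAAV-control mice. All rAAV-OVA mice were above all rAAV-control mice, although D844 lay just above them. Log2FC was 0.95 (SE 0.26, FDR 0.00805), and the call held in all 31 fits with 1 mouse left out. Without D720 and D844 it was 1.57 (FDR 1.7e-05).

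Tmem119, a membrane protein widely used as a marker that separates microglia from infiltrating macrophages, followed Csf1r closely. At 5 days it stood at 65.9, 74.5, 76.2 and 85.4 CPM in rAAV-OVA mice and at 28.1, 31.6, 34.1 and 47.0 CPM in rAAV-control mice. The groups were separate, with a ratio of means of 2.15 and a Log2FC of 0.76 (SE 0.27, FDR 0.0397). This call was lost in 13 of 31 fits that left out 1 mouse (D725, D726, D786, D787, D723, D724, BEC-B542, D743, BEC-B544, D701, D703, D843 or D851), with Log2FC between 0.63 and 0.82 and FDR between 0.0507 and 0.121. Without surrogate variables Log2FC was 1.10 (FDR 0.00418). At 8 days Tmem119 was not called, with a Log2FC of 0.65 (SE 0.28, FDR 0.105). D720 had 92.2 CPM, the highest value of all 7 mice of that day, and the other control mice had 23.2 and 36.2 CPM. Leaving out D720 alone gave a Log2FC of 1.24 (FDR 0.00258), and leaving out D844 as well 1.36 (FDR 5.67e-05). At 28 days the rAAV-OVA mice had 33.1, 62.2, 80.6 and 96.1 CPM and the rAAV-control mice 22.6, 26.2, 27.8 and 27.9 CPM. The groups were again separate, and Tmem119 was called with a Log2FC of 0.99 (SE 0.28, FDR 0.00878), or 1.65 (FDR 3.93e-06) without D720 and D844.

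Sall1, the zinc finger transcription factor that maintains microglial identity, was separate between vectors at 5 days but its Log2FC stayed under the limit. rAAV-OVA mice had 43.1, 45.3, 45.4 and 47.0 CPM and rAAV-control mice 25.6, 27.9, 29.5 and 39.9 CPM. Log2FC was 0.42 (SE 0.18, FDR 0.0743). At 8 days it was 0.61 (SE 0.18, FDR 0.0225), which passed the FDR but not the limit on Log2FC, and it was called when D703 or D720 was left out (Log2FC 0.66 and 0.92) and without D720 and D844 (0.98, FDR 8.99e-05). At 28 days rAAV-OVA mice had 35.3, 41.7, 52.9 and 59.5 CPM and rAAV-control mice 21.2, 25.1, 27.7 and 28.3 CPM. The lowest rAAV-OVA mouse was D844, still above every control mouse. Without D720 and D844 Log2FC at 28 days was 1.09, a value raised by construction. With all mice Sall1 was called at 28 days, with a Log2FC of 0.74 (SE 0.18, FDR 0.00329), also in each of the 31 fits without 1 mouse. Of 13 other settings 10 kept the call. It was lost with DESeq2 and ashr shrinkage (0.65, under the limit), in batch 1 alone (1.10, FDR 0.0575) and in batch 2 alone (0.71, FDR 0.373).

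Olfml3, a secreted olfactomedin-like protein, was called at 28 days. At 8 days its Log2FC was 0.28 (FDR 0.379), not called with all mice, and 0.77 (FDR 0.0101), called, without D720 and D844. At 5 days its values of 60.4, 65.6, 67.9 and 70.0 CPM in rAAV-OVA mice lay above 36.3, 39.7, 42.1 and 52.4 CPM in rAAV-control mice. The groups did not overlap, yet the modelled Log2FC was 0.23 (SE 0.21, FDR 0.451), and without surrogate variables it was 0.63 (FDR 0.0684). At 28 days the values were 35.4, 61.1, 90.9 and 102 CPM against 24.5, 24.6, 26.1 and 30.9 CPM. The ratio of means was 2.72 and Log2FC was 0.98 (SE 0.22, FDR 0.00175), a call kept in all 31 fits with 1 mouse left out. The fit without D720 and D844 gave 1.46, a value raised by construction. In rAAV-control mice Olfml3 also changed with time: it fell by 1.04 on the log2 scale from 2 to 28 days (SE 0.20, FDR 0.00501), from a mean of 61.3 ± 9.20 CPM (SD, n = 4) to 26.5 ± 2.99 CPM (SD, n = 4).

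P2ry12 and P2ry13, related receptors for ADP that couple to inhibitory G proteins, are neighbours on chromosome 3. P2ry12 directs microglial processes towards released nucleotides and is among the most used markers of the homeostatic state. The 2 promoter windows, of 300 bases each (RefSeq, GRCm38.p6), are shown because these neighbouring genes differed in direction at 5 days. P2ry12 lies at chr3:59262936-59263235 and P2ry13 at chr3:59210833-59211132, both on the minus strand, and each runs 5′ to 3′ from 250 bases before the start site to 50 after it. Capitals mark the core of the PU.1 motif, searched as AGGAAG on both strands, with the sequences already in view.
P2ry12: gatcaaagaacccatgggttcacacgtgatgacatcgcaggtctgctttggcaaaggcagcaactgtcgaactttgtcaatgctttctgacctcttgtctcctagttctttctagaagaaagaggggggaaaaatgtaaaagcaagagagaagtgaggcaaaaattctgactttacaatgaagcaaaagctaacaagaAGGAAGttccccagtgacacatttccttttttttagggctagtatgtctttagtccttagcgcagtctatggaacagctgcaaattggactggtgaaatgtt
P2ry13: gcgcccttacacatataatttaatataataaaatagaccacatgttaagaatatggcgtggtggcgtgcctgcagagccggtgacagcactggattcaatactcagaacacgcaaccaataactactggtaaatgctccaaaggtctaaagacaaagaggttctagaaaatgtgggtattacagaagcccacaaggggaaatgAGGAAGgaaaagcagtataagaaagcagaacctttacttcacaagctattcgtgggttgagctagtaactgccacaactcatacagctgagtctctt

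Each of these windows holds the AGGAAG motif once, beginning at −52 for P2ry12 and −47 for P2ry13 from the start site. Among all 32851 promoter windows of the same length 35.4% hold it. Of the 7 windows listed for the members, which cover P2ry12, P2ry13, Olfml3, Siglech and Sall1 (3 windows), 4 did. The GAS motif, searched as TTCNNNGAA, was looked for as well. It was found in 1 of the 7 windows, that of Siglech, and in 8.3% of all windows. A motif match is a description of the letters and not of binding.

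For P2ry12 the values at 5 days were 28.8, 34.4, 36.0 and 36.5 CPM in rAAV-OVA mice and 44.2, 47.5, 48.7 and 56.8 CPM in rAAV-control mice. No mouse of one vector reached the range of the other. The mean was 33.9 ± 3.51 CPM against 49.3 ± 5.38 CPM (SD, n = 4 each), and Log2FC was −0.65 (SE 0.19, FDR 0.0131), which passed the FDR but missed the limit of 0.66, so the gene was not called. It was called in 7 of 31 fits that left out 1 mouse (D724, D745, BEC-B542, D743, D701, D696 or D843), with Log2FC between −0.70 and −0.66. At 8 days the vectors overlapped, with 35.9, 36.3, 51.1 and 51.9 CPM against 36.2, 44.2 and 51.3 CPM. The Log2FC of −0.11 (SE 0.20, FDR 0.707) became 0.05 without D720 and D844. At 28 days the values were 34.6, 49.0, 54.6 and 58.4 CPM against 29.3, 37.0, 39.7 and 40.1 CPM, with a Log2FC of 0.32 (FDR 0.206), or 0.56 (FDR 0.0546) without D720 and D844, not called in either fit. Only D844 lay within the control range.

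P2ry12 also differed between days among rAAV-control mice. It stood at 16.1, 29.5, 32.9 and 33.4 CPM at 2 days and at 44.2 to 56.8 CPM at 5 days, a rise of 0.83 (log2; SE 0.18, FDR 0.0169). The lowest of these mice was D743 at 2 days, and without D743 the difference was 0.65 (FDR 0.055) and no longer called. Leaving out D723, a control mouse at 5 days, also ended the call (0.81, FDR 0.0979). Of these control mice 2 of 4 at 2 days are of batch 2 and all at 5 days are of batch 1. With the batch label in place of the surrogate variables the difference was 0.75 (FDR 0.146), not called, and with the batch label beside them it was 0.88 (FDR 0.0456), called. It was not called without surrogate variables (0.82, FDR 0.0757) or in a fit of these groups alone (0.78, FDR 0.0996). Of 9 monocyte markers, 6 were called lower from 2 to 5 days in the same mice. D743 had the highest summed level of monocyte markers (333 CPM, against 148 to 248 CPM in the other control mice at 2 days) and of border-associated macrophage markers (152 CPM against 59.6 to 80.9 CPM). The part of these cells in the difference was not tested. The level in rAAV-OVA mice at 5 days, 28.8 to 36.5 CPM, overlapped with that of control mice at 2 days. In rAAV-OVA mice at 2 days P2ry12 was 32.8, 33.7, 46.1 and 50.3 CPM.

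P2ry13 did not go down with its neighbour. At 5 days rAAV-OVA mice had 24, 26.5, 28.2 and 30.5 CPM and rAAV-control mice 14, 16.1, 17.3 and 19.2 CPM. The groups were separate in the upward direction, with a ratio of 1.64, while the modelled Log2FC was 0.39 (SE 0.20, FDR 0.149) and the gene was not called. Without surrogate variables it was called, with a Log2FC of 0.71 (FDR 0.0259). At 8 days P2ry13 stood at 23.9, 27.2, 28.7 and 36.6 CPM against 13.3, 18.7 and 29.7 CPM, where the highest control value is D720. Log2FC was 0.44 (SE 0.21, FDR 0.138) with all mice and 0.78 (FDR 0.00822), called, without D720 and D844. At 28 days P2ry13 stood at 15.3, 31.1, 42.1 and 42.9 CPM against 10.4, 12.2, 12.3 and 13.6 CPM. Every rAAV-OVA mouse was above every control mouse, and Log2FC was 1.04 (SE 0.21, FDR 0.000812), and 1.46 (FDR 1.54e-05) without D720 and D844.

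Gpr34, a receptor for lysophosphatidylserine, showed the largest decrease. At 5 days the rAAV-OVA mice had 5.56, 6.52, 7.77 and 10.9 CPM and the rAAV-control mice 13.7, 13.9, 17.3 and 20.3 CPM. The groups did not overlap. The mean fell from 16.3 ± 3.15 CPM in control mice to 7.70 ± 2.34 CPM in rAAV-OVA mice (SD, n = 4 each), with a Log2FC of −1.24 (SE 0.25, FDR 0.000731). The call held in each of 31 fits without 1 mouse, with Log2FC between −1.33 and −0.98. At 8 days Gpr34 had 9.58, 10.7, 14.9 and 15.4 CPM against 10.9, 15.1 and 16.5 CPM. These ranges overlapped, and Log2FC was −0.45 (SE 0.25, FDR 0.206), or −0.22 (FDR 0.569) without D720 and D844. At 28 days the mean was higher in rAAV-OVA mice, with 11, 18.7, 21 and 22.8 CPM against 9.70, 10.8, 11.4 and 13.2 CPM. The ranges overlapped, as D844, again the lowest rAAV-OVA mouse, lay within the control range. The Log2FC of 0.61 (SE 0.25, FDR 0.0600) was not called with all mice and was 0.93 (FDR 0.0143) without D720 and D844. Leaving out D723, D683, D684, D740, BEC-B544, D700, D722, D705 or D845 alone also brought it past both limits, with Log2FC between 0.66 and 0.90.

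Siglech, a sialic acid-binding lectin found on microglia and also on plasmacytoid dendritic cells, was not called at any time point with all mice. At 5 days Siglech was 22.9, 24.2, 26.6 and 26.9 CPM in rAAV-OVA mice and 16.5, 17.4, 20.5 and 20.7 CPM in rAAV-control mice. The vectors were separate by a small margin, and Log2FC was 0.21 (SE 0.22, FDR 0.502). At 8 days the rAAV-OVA mice had 25.8 to 39.2 CPM, D720 had 37.0 CPM and the other control mice 13.5 and 18.1 CPM. Log2FC was 0.43 (SE 0.22, FDR 0.179) with all mice, and the gene was called without D720, with a Log2FC of 0.87 (FDR 0.00843), and without D720 and D844 (0.93, FDR 0.00265). At 28 days the values were 14.9, 20.4, 20.5 and 25.1 CPM against 15.1, 15.3, 15.5 and 16.2 CPM, and Log2FC was 0.15 (SE 0.22, FDR 0.606), the smallest of the 8, and 0.41 (FDR 0.129) without D720 and D844. Of 5 tested markers of plasmacytoid dendritic cells, the interferon-inducible Bst2 and Irf7 were called higher at 5 days (Log2FC 3.17 and 3.57) and at 28 days (2.03 and 2.10), and Bst2 also at 8 days (1.69), joined by Irf7 (2.49) without D720 and D844, where Bst2 at 8 days was at 2.83 and Irf7 at 28 days at 3.16. Tcf4 and Runx2 were called lower at 28 days (Log2FC −0.75 and −0.92), and neither was called without D720 and D844 (−0.49 and −0.44). In the control groups Tcf4 had means of 432 to 497 CPM, against 11.7 to 22.9 CPM for Siglech. Which cells the Tcf4 signal came from was not tested. Cox6a2, the fifth, was not called, and Ccr9, Klk1 and Spib were not among the genes tested. How much of the Siglech signal came from plasmacytoid dendritic cells was not tested.

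**Figure D2:**
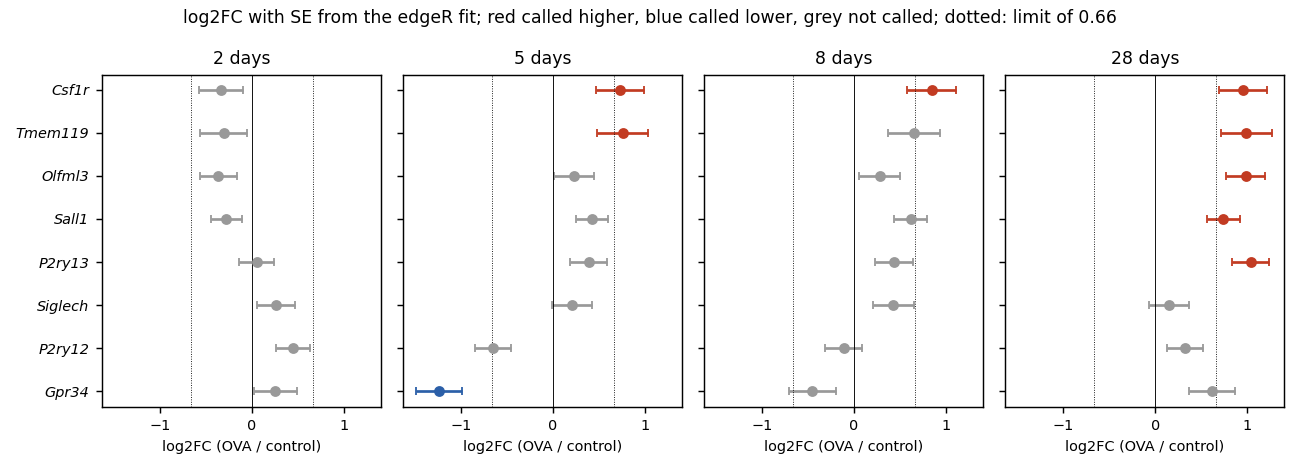
Log2FC of rAAV-OVA against rAAV-control (x axes) for each gene (y axis) at the 4 time points, from the edgeR fit on all 31 mice; bars are 1 SE, dotted lines mark the limit of 0.66, and red, blue and grey mark genes called higher, called lower and not called. At 5 days Csf1r and Tmem119 lie at 0.73 and 0.76 and Gpr34 at −1.24, and at 28 days all 8 genes lie above 0.

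The groups were also compared by overlap of the CPM values, which uses no model. At 5 days 6 genes were higher and 2 lower in rAAV-OVA mice without overlap, where 21% of all genes were higher and 19.6% lower in this way. At 28 days 5 were higher and 0 lower, against 15% and 14% of all genes. At 8 days 0 of the 8 were separate, where 14.4% and 11.9% of all genes were; each of the 8 genes had its highest control value in D720. At 2 days 1 gene, Csf1r, was separate, with 142, 184, 184 and 191 CPM in rAAV-OVA mice below 196, 206, 242 and 247 CPM in rAAV-control mice, where 2.22% of all genes were higher and 1.94% lower. Its Log2FC at 2 days was −0.34 (SE 0.24, FDR 0.722). At that time point 0% of genes were called in either direction by edgeR, the lowest FDR of any gene was 0.214, and 1428 genes had an unadjusted p under 0.05.

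Whether the response differed between time points was tested as an interaction. From 2 to 5 days, 5 of the 8 genes differed: Csf1r by 1.07 (FDR 0.0336), Tmem119 by 1.06 (FDR 0.0443) and Sall1 by 0.70 (FDR 0.0416) upwards, and Gpr34 by −1.50 (SE 0.34, FDR 0.00334) and P2ry12 by −1.10 (SE 0.26, FDR 0.00487) downwards. Of all genes, 9.98% differed upwards and 4.33% downwards. The differences of Gpr34 and P2ry12 held in all 31 fits without 1 mouse. Those of Csf1r, Tmem119 and Sall1 were called in 18, 11 and 15 of these fits, and where they were lost the values lay between 0.84 and 1.07, between 0.87 and 1.12, and between 0.59 and 0.73. The mice that ended all 3 of these calls were D726, D786, D723, D724, D684, BEC-B542, BEC-B544, BEC-R385, D701, D703 and D851.

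From 5 to 28 days the response of Gpr34 moved up by 1.86 (SE 0.33, FDR 0.00128) and that of P2ry12 by 0.97 (SE 0.25, FDR 0.0192), so that the Log2FC of Gpr34 went from −1.24 to 0.61 and that of P2ry12 from −0.65 to 0.32. Of all genes, 3.86% moved up and 2.32% down between these time points. The value for Gpr34 was called in all 31 fits without 1 mouse and the value for P2ry12 in 27, the exceptions being D725, D755, BEC-B542 and D851, with 0.86 to 1.07. The value for P2ry12 was also not called without surrogate variables (0.97) or with the batch label in their place (0.96). Without D720 and D844 Olfml3 (0.96, FDR 0.0178) and P2ry13 (0.86, FDR 0.0291) were called as well. From 5 to 8 days 0 of the 8 genes differed, against 0.0575% of all genes upwards and 0.121% downwards; unadjusted p was 0.0346 for Gpr34 (0.79) and 0.0616 for P2ry12 (0.54). From 8 to 28 days 0 of the 8 genes and 0% of all genes differed, with unadjusted p of 0.00599 for Gpr34, 0.0329 for Olfml3 and 0.0498 for P2ry13. These contrasts share the mice of the day they have in common and are not independent.

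Among rAAV-control mice, P2ry12 was called higher at 5 than at 2 days and Olfml3 lower at 28 than at 2 days, as described above. From 2 to 5 days 0.134% of all genes were called higher and 1.8% lower, and from 2 to 28 days 0.134% higher and 2.82% lower. Tmem119 was near the limits, at −0.90 (SE 0.26, FDR 0.0551) from 2 to 28 days. Csf1r had a mean of 223 ± 25.5 CPM at 2 days and 124 ± 3.68 CPM at 28 days (SD, n = 4 each) in these mice, with a modelled difference of −0.70 (SE 0.24, FDR 0.145) that was not called. Without D720 and D844 both were called, Tmem119 at −1.06 (FDR 0.000185) and Csf1r at −0.84 (FDR 0.00304), and so was Siglech from 2 to 5 days (0.67, FDR 0.0209). From 2 to 28 days 6 of 9 monocyte markers, 4 of 12 shared myeloid genes and 4 of 8 border-associated macrophage markers were called lower in rAAV-control mice, and their part in the values of the 8 genes was not tested. Each comparison of vectors above is made within a day.

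The ratio of each gene to Csf1r within the same mouse does not depend on the scaling of that mouse's library. It is given as a description, with no test, and because Csf1r itself was higher in rAAV-OVA mice at 5, 8 and 28 days, most genes were lower against it. The median difference of the log2 ratio between vectors over all genes above 0 in every mouse of the day was 0.36, −1.16, −0.94 and −1.28 on days 2, 5, 8 and 28. A lower ratio without overlap was found for 5 of the 7 other members at 5 days, where 76.4% of all genes were lower in this way and 5.49% higher. It was found for 1 at 8 days, where 7.92% were lower and 4.84% higher, and for 3 at 28 days, where 52.4% were lower and 3.74% higher. The members' shares at 5 and 28 days are near or below those of all genes, and at 8 days a single gene is concerned, so the lack of overlap is not a result about the members. P2ry12 stood at 22.2 to 33.8% of the CPM of Csf1r in the 4 rAAV-control mice at 5 days and at 7.58 to 10.1% in the 4 rAAV-OVA mice. On the log2 scale the mean ratio was −1.85 ± 0.25 in rAAV-control mice and −3.52 ± 0.17 in rAAV-OVA mice (SD, n = 4 each), a difference of −1.67 with no overlap. At 8 days the difference was −0.94 with overlap, and at 28 days −0.85 without overlap, as P2ry12 had a mean of −2.63 ± 0.48 in rAAV-OVA mice and −1.78 ± 0.21 in control mice. The difference at 5 days was further below 0 than the median of all genes, and the difference at 28 days was nearer to 0 than that median. At 2 days the ratio was higher in rAAV-OVA mice by 0.92 without overlap, as it was for 17.3% of all genes, while 0.275% were lower.

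The ratios of the other genes to Csf1r differed among themselves. For Tmem119 the difference between vectors was −0.01 at 5 days and 0.02 at 28 days, with overlap at each, so Tmem119 and Csf1r moved by nearly the same factor. Gpr34 had the widest difference at 5 days, −2.24 without overlap, and was −0.61 at 28 days, also without overlap. Siglech was at −0.71 and −0.91 on these days, without overlap. Sall1 and Olfml3 were lower in relation to Csf1r at 5 days (−0.55 and −0.49, without overlap), and Olfml3 was at 0.07 at 28 days, with overlap. At 8 days Olfml3 was the one gene whose ratio did not overlap between vectors (−0.54). P2ry13 was at −0.41 at 5 days and 0.07 at 28 days, with overlap at both.

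**Figure D3:**
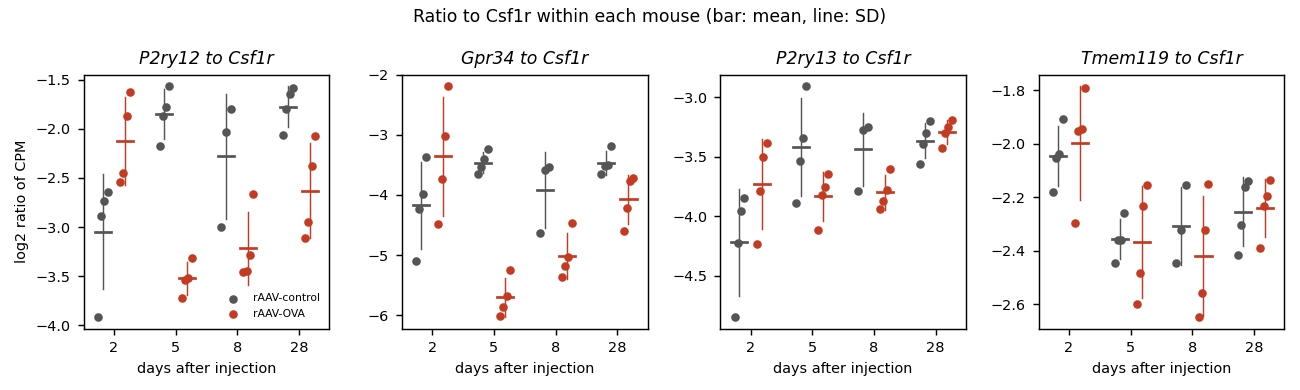
Log2 ratio of the CPM of P2ry12, Gpr34, P2ry13 and Tmem119 to that of Csf1r in the same mouse (y axes) by day (x axes), rAAV-control in grey and rAAV-OVA in red; points are mice, bars are means and lines are 1 SD. The P2ry12 and Gpr34 ratios of rAAV-OVA mice lie below those of control mice at 5 days by 1.67 and 2.24, and the Tmem119 ratios overlap on every day.

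Between genes, levels are compared per length, as CPM per kilobase of the longest protein-coding transcript in GENCODE M21. In rAAV-control mice at 28 days Csf1r stood highest at 26.4 ± 0.78 CPM per kilobase (SD, n = 4). P2ry12 followed at 15.6 ± 2.12, Tmem119 at 11.6 ± 1.10 and Siglech at 6.74 ± 0.21. Gpr34 (5.41 ± 0.70), Sall1 (4.86 ± 0.61), Olfml3 (4.85 ± 0.55) and P2ry13 (4.79 ± 0.51) had intervals of 1 SD that overlapped. In rAAV-OVA mice at 5 days the order was Csf1r at 82.6 ± 5.40, Tmem119 at 33.7 ± 3.57, P2ry12 at 14.5 ± 1.50, Olfml3 at 12.1 ± 0.76, Siglech at 10.9 ± 0.83, P2ry13 at 10.8 ± 1.08, Sall1 at 8.59 ± 0.31 and Gpr34 at 3.69 ± 1.12. The intervals of 1 SD of Olfml3, Siglech and P2ry13 overlapped there, so their order is not resolved. Tmem119 was above P2ry12 in rAAV-OVA mice at 5 days. In control mice of the same day their intervals overlapped (15.7 ± 3.68 against 21 ± 2.29), so their order is not resolved there.

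Each gene was set beside all others by the Pearson correlation of log2 CPM over the 31 mice, as a description of likeness. The mice of a group share vector and day, and genes of one cell type move with its share of the tissue. The closest genes to Csf1r were Laptm5 (r = 0.98), Grn (0.98) and Unc93b1 (0.98), which code for lysosomal and endosomal proteins of macrophages. Tmem119 was closest to C1qc (0.98), Pld4 (0.97) and C1qa (0.97), and Olfml3 to Tmem119 (0.94), C1qc (0.93) and Anxa3 (0.93). P2ry13 was closest to Lag3 (0.93), H2-Oa (0.93) and Cmtm6 (0.93). Sall1 was closest to Man2b1 (0.94), Slc8b1 (0.93) and the T cell receptor segment Trav14d-1 (0.93), and Siglech to Crybb1 (0.85), P2ry13 (0.83) and Capn3 (0.83).

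P2ry12 and Gpr34 had other neighbours. P2ry12 was closest to Gm10790 (0.75), the fructose transporter Slc2a5 (0.74) and Gpr34 (0.69), and Gpr34 to Itm2a (0.89), Selenop (0.78) and a gene without a symbol (0.78). Between P2ry12 and Csf1r r was 0.17, and between Gpr34 and Csf1r −0.08, whereas it was 0.95 between Tmem119 and Csf1r. Taken as deviations from the 8 group means, the closest genes to P2ry12 were Gpr34 (0.80), Siglech (0.76) and P2ry13 (0.71). For Csf1r the same deviations gave Laptm5 (0.98), Grn (0.98) and C1qc (0.97), and for Gpr34 they gave Itm2a (0.84), P2ry12 (0.80) and Rpa3 (0.77).

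At 2 and 28 days the comparison was repeated within each batch, with 2 mice per vector. At 28 days all 8 genes were higher on average in rAAV-OVA mice in batch 1 and in batch 2, with differences in mean log2 CPM of 0.56 to 1.68 and 0.10 to 1.00. In batch 1 all 8 genes were separate, where 30% of all genes were higher without overlap, and in batch 2, which holds D844, 5 were, where 30.2% were. Fitted alone, batch 1 gave 4 called genes, where 6.68% of all genes were called higher, and batch 2 gave 0, as for 0% of all genes, with Log2FC of 1.06 to 1.16 for Csf1r, Tmem119, Olfml3 and P2ry13. At 2 days 2 genes were higher and 4 lower without overlap in batch 1, where 18.8% of all genes were higher and 19% lower, and 0 were higher and 3 lower in batch 2, where 18.5% and 17.6% were. Csf1r (−0.46 and −0.23), Tmem119 (−0.29 and −0.31) and Sall1 (−0.17 and −0.41) were lower without overlap in each batch. In the fit on all mice, all 12 shared myeloid genes had a Log2FC below 0 at 2 days (median −0.47), and 0 were called. The part of myeloid cells in these differences was not tested. P2ry12 differed by 1.06 in batch 1 and 0.08 in batch 2, and Gpr34 by 1.16 and −0.23. The rAAV-control mouse with the lowest P2ry12, Gpr34, Siglech and P2ry13 at 2 days, D743, belongs to batch 1.

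Markers of other cells changed in the same mice. Of 12 genes shared by myeloid cells, such as the microglial and macrophage marker Aif1, 10 were called higher at 5 and at 8 days, and all 12 on day 28. Their summed level at 5 days was 2548 to 2772 CPM in rAAV-OVA mice and 436 to 1039 CPM in rAAV-control mice. Of 9 monocyte markers, 7, 7 and 6 were called higher on these days (8, 7 and 9 without D720 and D844), and their sum at 5 days was 509 to 713 CPM against 78.7 to 112 CPM. Ccr2, used here as a marker of infiltrating monocytes and not expressed by homeostatic microglia, was at 18.6 to 44.4 CPM in rAAV-OVA mice at 5 days and at 0.358 to 1.24 CPM in control mice. At 2 days Ccr2 was at 4.04 to 9.29 CPM in rAAV-OVA mice and at 8.48 to 13.1 CPM in control mice. At 28 days control mice had at most 0.602 CPM of Ccr2, and rAAV-OVA mice had 1.1 to 23.9 CPM, with D844 lowest. How much of the Csf1r signal came from monocytes was not tested.

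Of 9 T cell markers 2, Cd8a and Lck, were among the genes tested, and both were called higher at 5, 8 and 28 days. Cd8a was at 32 to 46.2 CPM in rAAV-OVA mice at 5 days and at 0.108 to 1.35 CPM in control mice. Of 8 border-associated macrophage markers 0 were called higher and 1 lower (Cbr2, Log2FC −1.41) at 5 days, 0 higher and 1 lower (Cbr2, −2.44) at 8 days, and 2 higher (Mrc1, 1.52, and Ms4a7, 4.15) at 28 days. Without D720 and D844 these counts were 2 higher and 1 lower, 1 higher and 1 lower, and 4 higher. Their sum at 5 days, 38.9 to 80.9 CPM against 26.6 to 56.6 CPM, overlapped between vectors. On that day the defining marker Mrc1 was at 1.51 to 3.48 CPM against 4.17 to 4.75 CPM. At 28 days Mrc1 was at 4.34, 4.41, 6.8 and 21.9 CPM in rAAV-OVA mice and at 2.6 to 4.99 CPM in control mice. These ranges overlapped, and the value of 21.9 CPM is D845. How far the call of Mrc1 at 28 days rests on D845 was not tested. Neuron markers were called lower for 1 of 8 genes at 5 days and 5 of 8 at 28 days. Oligodendrocyte markers were called lower for 3 of 5 genes at 5 days, among them Mbp and Mog, and of 5 astrocyte markers Gja1 was lower at 5 days and Gfap higher at 28 days. Without D720 and D844 Gfap was called higher at 5 and 8 days as well, and 3 of the 5 at 28 days. The part that these changes in composition have in the CPM of the 8 genes was not tested.

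**Figure D4:**
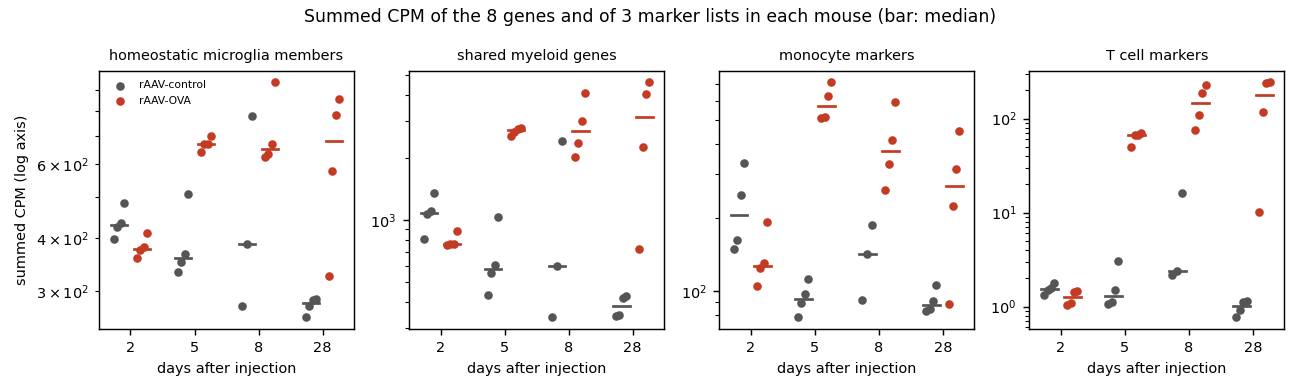
Summed CPM (log y axes) of the 8 genes and of the shared myeloid, monocyte and T cell marker lists in each mouse, by day (x axes), with rAAV-control in grey and rAAV-OVA in red; bars are medians. The control mouse far above its group at 8 days is D720, and the rAAV-OVA mouse far below its group at 28 days is D844.

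Among 14 other homeostatic microglia genes that were tested, 0 were called at 2 days. On day 5, 3 were called higher and 1 lower, on day 8 3 were called higher, and 11 on day 28. Among those called higher at 5 days, Entpd1, which degrades extracellular ATP, had a Log2FC of 1.82 (FDR 4.83e-05) and Lpcat2 one of 1.20 (FDR 0.00409). The gene called lower was Ltc4s, which makes leukotriene C4, at −2.50 (SE 0.47, FDR 0.00037). Cx3cr1, the fractalkine receptor, was not called at 2, 5 or 8 days, with Log2FC of −0.66, 0.14 and 0.50, and was called at 28 days at 1.30 (SE 0.26, FDR 0.000855). Its CPM at 5 days was 119 to 123 in rAAV-OVA mice and 71.8 to 130 in rAAV-control mice, which overlapped. At 28 days Adgrg1 (0.70), Crybb1 (1.37), Entpd1 (1.40), Lpcat2 (1.45), Rnase4 (1.10), Selplg (1.17), Tgfbr1 (1.00) and Vsir (1.19) were called as well. Gpr165 was also called at 28 days (0.89, FDR 0.0438), with 2.10, 4.16, 5.31 and 24.6 CPM in rAAV-OVA mice and 4.66, 4.93, 5.52 and 7.14 CPM in rAAV-control mice. The value of 24.6 CPM is D844, and without D720 and D844 Log2FC was −0.34 (FDR 0.455). In that fit 9 of the 14 genes were called higher at 28 days, with Adgrg1 under the limit (0.63). There were 8 higher and 1 lower (Gpr165, −0.95) at 8 days, and 5 higher and 1 lower at 5 days, with Cx3cr1 called at 8 days (0.88, FDR 0.00543). Values moved by over 1.5 times for Lpcat2 at 8 days (1.99) and for Crybb1 (2.18), Selplg (1.78), Tgfbr1 (1.56) and Vsir (1.82) at 28 days. With all mice, Selplg was also called at 8 days (1.01), as were Entpd1 (1.59) and Lpcat2 (1.24).

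Of 12 ligands and regulators of microglial identity, 6 were called higher on day 5 and 7 on each of days 8 and 28. Csf1 was at 65.0 to 78.1 CPM in rAAV-OVA mice at 5 days and at 25.3 to 36.1 CPM in control mice, with a Log2FC of 0.82 (SE 0.22, FDR 0.00657), and it was called again at 28 days (0.71, FDR 0.0152). Il34, the ligand made by neurons, was at 16.2 to 26.1 CPM against 33.3 to 38.0 CPM at 5 days, and its Log2FC of −0.65 (SE 0.14, FDR 0.00163) missed the limit of 0.66. Tgfb1 was called at 5, 8 and 28 days (1.39, 1.55 and 2.06), and the TGF-beta receptor gene Tgfbr2 at 8 and 28 days (0.96 and 1.65). Nrros, which tethers latent TGF-beta on microglia, was called at 5 and 8 days (1.04 and 1.21). The transcription factors Spi1, which encodes PU.1 (1.35, 1.69 and 2.10), Irf8 (2.42, 2.57 and 2.75) and Runx1 (1.71, 1.83 and 1.77) were called at 5, 8 and 28 days. These genes are also expressed by infiltrating myeloid cells. The counts without D720 and D844 were 8, 9 and 9 of 12, with Tgfbr2 called at 5 days (0.95), Csf1 at 8 days (0.97) and Nrros at 28 days (1.40) as well. Among the genes named here that were called in each fit, values moved by over 1.5 times for Csf1 at 28 days (1.09), Tgfbr2 and Spi1 at 8 days (1.47 and 2.53) and Runx1 at 8 and 28 days (3.17 and 2.83).

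Of 8 further genes for sensing and handling purines, 5 were called higher on day 5, 6 on day 8 and 7 on day 28, and 0 were called lower. At 5 days these were P2ry14 (Log2FC 1.91), Adora3 (1.34), Nt5e, the enzyme that makes adenosine (1.20), Slc29a3 (0.88) and P2rx4 (0.79). At 8 days the 5 genes were called again, at 1.47, 1.20, 2.31, 1.00 and 1.13, together with the UDP receptor P2ry6 at 1.37. At 28 days they were at 1.08, 1.50, 1.77, 0.95 and 1.43, P2ry6 was at 1.80, and the ATP-gated channel P2rx7 at 0.68. With D720 and D844 left out, P2ry6 was called at 5 days (1.68) and P2rx7 at 8 days (0.92) as well. In that fit Adora3 and P2ry6 were at 2.06 and 2.34 on day 8, and on day 28 P2ry14, Adora3, Slc29a3, P2ry6 and P2rx7 were at 1.66, 2.28, 1.61, 2.79 and 1.02, over 1.5 times their values with all mice. At 5 days the Log2FC of the 8 genes in this list lay between 0.24 and 1.91, against −0.65 for P2ry12.

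Annotation bears on some of these values. P2ry12 and P2ry13 lie within Med12l and Gpr34 within Cask, on the opposite strand, and in GENCODE M21 the exons shared are 9 bases for P2ry12 and 0 for P2ry13 and Gpr34. Csf1r shares 873 exon bases with Hmgxb3 on the opposite strand. The strand setting of the counting was detected by the software and the kit is not stated to keep strand, so reads there cannot be told apart for certain. Hmgxb3 spanned 5.31 to 5.72 log2 CPM over the 31 mice and Csf1r 6.91 to 9.13.

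**Figure D5:**
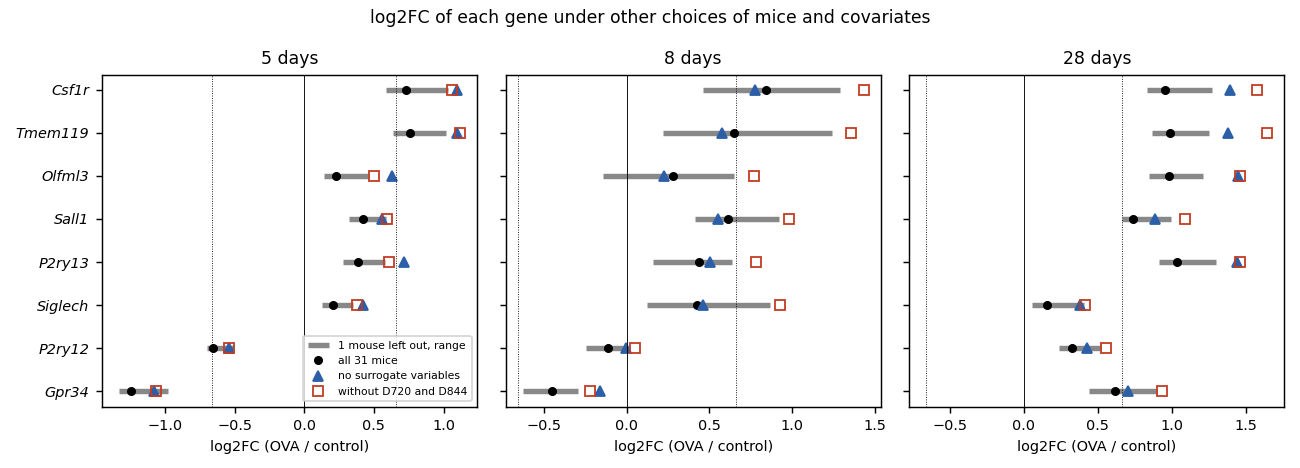
Log2FC of rAAV-OVA against rAAV-control (x axes) for each gene (y axis) at 5, 8 and 28 days under other choices: black points are the fit on all 31 mice, grey bars the range when 1 mouse is left out, blue triangles the fit without surrogate variables and red squares the fit without D720 and D844; dotted lines mark 0.66. At 8 days the grey bar of Tmem119 runs from 0.22 to 1.24, and at 5 days Gpr34 stays below −0.66 under each of these choices.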

How the data were processed

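Left hippocampi of 31 mice were sequenced as bulk RNA with the TruSeq RNA kit on a NovaSeq. The authors trimmed reads with fastp, quantified GENCODE M29 transcripts with Salmon 1.8.0 including its GC correction, summarised them to genes with tximeta, and deposited estimated counts, rounded to whole numbers and not normalized. Genes were kept where 15 or more mice reached 15 counts. Both tables hold the same 15648 genes, and 0 cells differ. Columns that hold no mouse of this series numbered 0.

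Counts were scaled with TMM to CPM. Differential expression was tested across all genes with edgeR 4.0.16 in R 4.3.3 (robust quasi-likelihood F-test) for 8 groups plus 2 surrogate variables from sva 3.50.0. FDR values follow Benjamini and Hochberg. Log2 CPM for correlations used a prior count of 2. The alternatives used DESeq2 1.42.0, ashr 2.2.63, limma 3.58.1 voom and other settings named in the closing section. The steps were tested on simulated data. No pair of mice within a group agreed within counting noise; pairs across groups were not compared. Replicates are mice, so p-values measure the spread between mice.

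The 8 genes, the other lists and the tests were chosen with earlier results of these data known. Named genes are the 8 members, the called genes of the homeostatic, regulator and purine lists with Cx3cr1, Csf1, Il34 and Tgfb1, the defining or called cell type markers, and for each member the 3 closest genes. A few genes that this rule names are counted but not reported here by name. The counts use a later genome build than the reference at hand, so coordinates are given for the RefSeq promoter windows alone, in GRCm38.p6, where 5 of 8 members had a window.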

Additional observations from a re-analysis of the deposited data

Results flagged for a closer look

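Within groups of 4 mice, 63 sets of values (the CPM of the 8 genes and the log2 ratio of P2ry12 to Csf1r) were examined for a mouse far from the other mice by Dixon's criterion, and 3 stood out, where chance marks about 1 in 20. They were Sall1 in rAAV-OVA mouse D700 at 8 days (57.9 CPM, highest), Csf1r in rAAV-control mouse D755 at 5 days (256 CPM, highest) and Csf1r in rAAV-OVA mouse D684 at 2 days (142 CPM, lowest). D720 belongs to a group of 3 and could not be examined in this way.

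The response differed between days, by the interaction test, for Csf1r (1.07), Tmem119 (1.06), Sall1 (0.70), P2ry12 (−1.10) and Gpr34 (−1.50) from 2 to 5 days, and for P2ry12 (0.97) and Gpr34 (1.86) from 5 to 28 days, all as differences in Log2FC.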

How the results depend on the processing

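No paired analysis was possible because a replicate name stands for 1 mouse and recurs in no other group. The number of called genes at 5 days (3) was 1 with DESeq2 and ashr, and 4 without surrogate variables, with the batch label in their place or beside them, with the mice of that day alone and with no limit on Log2FC. At 8 days (1) it was 0 with DESeq2 and ashr, without surrogate variables, with the batch label in their place, with 15 counts in every mouse and with the mice of that day alone, 2 when scaled by total count or with no limit on Log2FC, and 6 without D720 and D844. At 28 days (5) it was 0 in batch 2 alone, 4 in batch 1 alone and 6 without D720 and D844. Between the responses at 2 and 5 days (5) it was 3 with ashr, and between 5 and 28 days (2) it was 1 without surrogate variables or with the batch label in their place and 4 without D720 and D844. In rAAV-control mice from 2 to 5 days (1) it was 0 without surrogate variables, with the batch label in their place or with the compared days alone, and 2 without D720 and D844. From 2 to 28 days (1) it was 3 with DESeq2, with the compared days alone or without D720 and D844, and 2 with ashr, DESeq2's size factors, total count, no surrogate variables or the batch label in their place. With 1 mouse left out, the counts ran from 1 to 3 at 5 days, 0 to 4 at 8 days, 5 to 6 at 28 days, 2 to 6 between 2 and 5 days, 1 to 4 between 5 and 28 days, 0 to 1 between 8 and 28 days, 0 to 2 for control mice to 5 days and 1 to 3 to 28 days. The highest count at 8 days was without D720. The causes were not tested.

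Single Log2FC changed sign in 7 cases, none of them called: P2ry13 at 2 days in batch 2 alone (−0.15), without D683 (−0.12) and without D743 (−0.07), Gpr34 at 2 days in batch 2 alone (−0.20), P2ry12 at 8 days with that day alone (0.022) and without D720 and D844 (0.051), and Olfml3 at 8 days without D696 (−0.14). With 1 mouse left out, the Log2FC of P2ry13 at 2 days lay between −0.12 and 0.22 and that of Olfml3 at 8 days between −0.14 and 0.65. Of 416 Log2FC under other settings 384 kept direction and call, as did 934 of 992 with 1 mouse left out. Most of these Log2FC were not called with all mice, and one that stays uncalled counts as kept. The calls of Csf1r and Tmem119 at 5 days held in 18 of 31 fits each, and that of Csf1r at 8 days in 22. Scaling by total count alone moved the median Log2FC of all genes at 5 days to 0.12. With 1 CPM added to both genes, the difference in the ratio of P2ry12 to Csf1r at 5 days was −1.65.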
